A study of Sus scrofa with 9 samples.

Results

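The RNA of 10 BMP pathway genes was followed in porcine aortic valvular interstitial cells (PVICs), the fibroblast-like cells that maintain the valve leaflet. BMP proteins and the activity of the pathway were not measured. The 10 genes were the ligand genes BMP2, BMP4 and BMP6, the receptor genes BMPR1A and BMPR2, the antagonist gene GREM1, and the target genes ID1, ID2, ID3 and SMAD6. They were chosen by symbol, and all 10 were found among the 19535 gene rows of the count table. All 10 also passed the filter on low counts, which left 13662 genes for testing, and the lowest count of any of them in any library was 118.

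The cells came from wild-type pigs aged 4 to 5 months, and the valve endothelial cells had been wiped off the leaflets before isolation. Control cells were kept in DMEM, and serum was at 10% in every group. OIM cells received osteogenic medium with sodium dihydrogen phosphate (2 mmol/L), insulin (1e-07 mol/L) and ascorbic acid (50 µg/mL), and bFGF cells received the same medium with 50 ng/mL bFGF. Treatment lasted 3 days according to the labels. The study's methods give a shorter time before RNA extraction. There were 3 libraries per group, and no group received bFGF without OIM, so bFGF was measured only on top of OIM. The labels do not say whether the libraries of a group came from separate animals or cultures, so p-values measure only the spread between these libraries, which may be technical.

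BMPs are secreted ligands that bind a pair of receptor types, type I such as BMPR1A and type II such as BMPR2. The type II receptor activates the type I receptor, which phosphorylates SMAD1, SMAD5 and SMAD9. These enter the nucleus with SMAD4 and switch on target genes, among them the ID genes, whose proteins block basic helix-loop-helix (bHLH) transcription factors, and SMAD6, which feeds back to inhibit the pathway. Secreted antagonists such as gremlin 1, the product of GREM1, hold the ligands away from the receptors. The pathway drives bone formation, and it has been linked to calcification of the aortic valve.

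The promoter regions of the 10 genes were searched for the BMP-responsive pattern that SMAD complexes are known to bind, spelled GGCGNC or GACGNC, then any 5 bases, then GTCT (N stands for any base), on both strands from 5000 bases upstream to 50 bases downstream of each annotated gene start in Sscrofa11.1. It was found in 3 of the 10 windows, those of ID1, ID2 and ID3, and in 454 of the 19457 windows searched over all genes (2.33%). The matches are shown because the 3 ID genes that hold them differed in direction under bFGF. The sequences were read from RefSeq Sscrofa11.1, each with 7 bases on either side, in the direction of the pattern, and capitals mark the fixed letters.
ID1, 937 bases upstream: cgagcctGGCGtCtaacgGTCTgagccgc
ID2, 4869 bases upstream: cggggctGGCGtCgccgaGTCTgagcctc
ID2, 3053 bases upstream: cgcgcctGGCGcCagagaGTCTgctccgg
ID3, 2920 bases upstream: ccaccctGGCGcCaggctGTCTggggctg
ID3, 465 bases upstream: aattcctGACGcCagtgaGTCTggaggtc
The match of ID1 lay at chr17:35315581-35315595, those of ID2 at chr3:127508062-127508076 and chr3:127506246-127506260, and those of ID3 at chr6:81427075-81427089 and chr6:81424620-81424634. The distal ID2 match was on the strand opposite to the gene, and the other 4 were on the same strand. SMAD6, also a known target, held no match in this window. Of the 57 other pathway genes described further on, 4 held a match, BMP3, CHRDL2, NBL1 and MSX2. A match is a description of these letters and was not tested as a binding site.

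**Figure D1:**
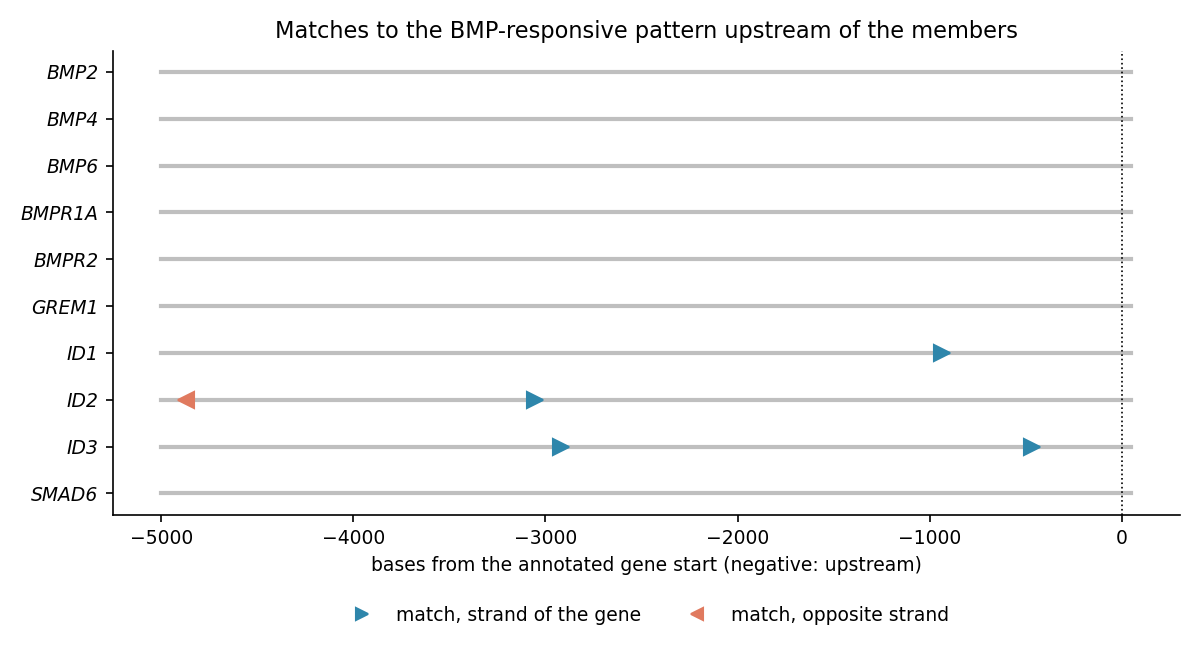
Matches of the BMP-responsive pattern in the 10 promoter windows. The x axis gives the distance from the annotated gene start in bases and each row is a gene; only the rows of ID1, ID2 and ID3 carry marks, 5 in all.

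Levels are given as CPM, counts scaled to the size of the library with TMM normalisation. Library totals were 57075793 to 64723837 counts in control, 57682710 to 67371523 in OIM and 46773376 to 48270827 in bFGF. OIM replicate 2 stood apart from the others of its group: its mean chi-square per gene was 18.4 against each of them, compared with 4.64 to 11.3 for all other pairs within a group. The called changes of the 10 genes to or from OIM are therefore also given without it. Of the 24 calls of other pathway genes in the 2 comparisons with OIM, 0 were lost and 0 gained by edgeR without it. The interstitial markers VIM (5499 to 9069 CPM) and COL1A1 (9735 to 28994 CPM) were high in every library. Summed interstitial markers were 65381 to 70794 CPM in control, 62047 to 64868 in OIM and 39105 to 39471 in bFGF, and summed smooth muscle and myofibroblast markers were 9792 to 10305, 10052 to 13311 and 1616 to 1795 CPM. Summed endothelial markers were 73.3 to 75.6, 87.5 to 89.3 and 170 to 180 CPM, with 7 of 9 called higher in bFGF against OIM by edgeR, against 17.7% of all genes. Of the 10 interstitial markers 2 were called higher and 4 lower there, and all 5 smooth muscle markers were called lower, against 18.4% of all genes. COL1A1 had 23879 to 26115 CPM in OIM and 9735 to 10140 in bFGF, while VIM had 5499 to 6067 and 8908 to 9069. The sums for leukocyte, cardiomyocyte, neural crest and epithelial markers were at most 18.0, 13.8, 2.22 and 0.220 CPM, and the cardiomyocyte gene TNNT2 was at 0 in all libraries. The leukocyte sum was 15.5 to 16.5 CPM in OIM and 8.86 to 9.56 in bFGF, with 2 of 5 tested markers called lower. For cardiomyocyte markers it was 10.7 to 13.8 and 6.40 to 8.33 CPM, with 1 of 3 called higher and 1 lower. The marker shifts from OIM to bFGF moved with the bFGF group, and their part in the values below was not tested.

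A gene was called when its Benjamini-Hochberg adjusted p in edgeR's quasi-likelihood test was at most 0.05 and its log2 fold change was at least 0.5 in size. Errors of log2 fold changes are standard errors (SE). The comparison of OIM with control asked what the osteogenic medium did. BMP6 rose, BMP2 and ID2 fell, and the other 7 genes were not called. These 3 of 10 genes stand against 2.35% of all genes tested, with 1.49% called higher and 0.864% lower. The adjusted p alone was passed by 5 of the 10, against 13.6% of all genes. The libraries of OIM and control did not overlap for 6 of the 10, against 28.8% of all genes.

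With bFGF added to OIM, 8 of the 10 genes were called, against 36.2% of all genes (17.7% higher and 18.4% lower). BMP2, GREM1 and ID1 rose, and BMP4, BMP6, BMPR2, ID2 and ID3 fell. All 10 passed the adjusted p alone, as did 67.4% of all genes, and the groups did not overlap for any of the 10, against 72.1% of all genes. The median log2 fold change was -0.54 over the 10 genes and -0.0029 over all genes tested.

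Against control, bFGF with OIM gave 5 calls among the 10 genes, a share near the 39.0% over all genes (18.9% higher and 20.0% lower). The adjusted p alone was passed by 9 of the 10, against 70.2% of all genes, and the groups did not overlap for 9, against 73.7%. BMP2 and GREM1 were higher, and BMPR2, ID2 and ID3 were lower. The 3 comparisons share their groups, so they are not independent of each other. Scaling by library totals without TMM moved the median over all genes tested by 0.22 (log2) in both bFGF comparisons, and the share of calls that were higher went from 49.0% to 68.8% against OIM and from 48.5% to 68.1% against control. No direction among the 10 genes turned under that scaling. BMP4 then lost its call against OIM (-0.43), and ID1 gained one against control (0.57). The adjusted p alone was then passed by 9 of the 10 genes against OIM, without SMAD6 (-0.039, edgeR adjusted p = 0.663), and by 8 against control, without BMP4 (-0.11, edgeR adjusted p = 0.156) and BMP6.

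**Figure D2:**
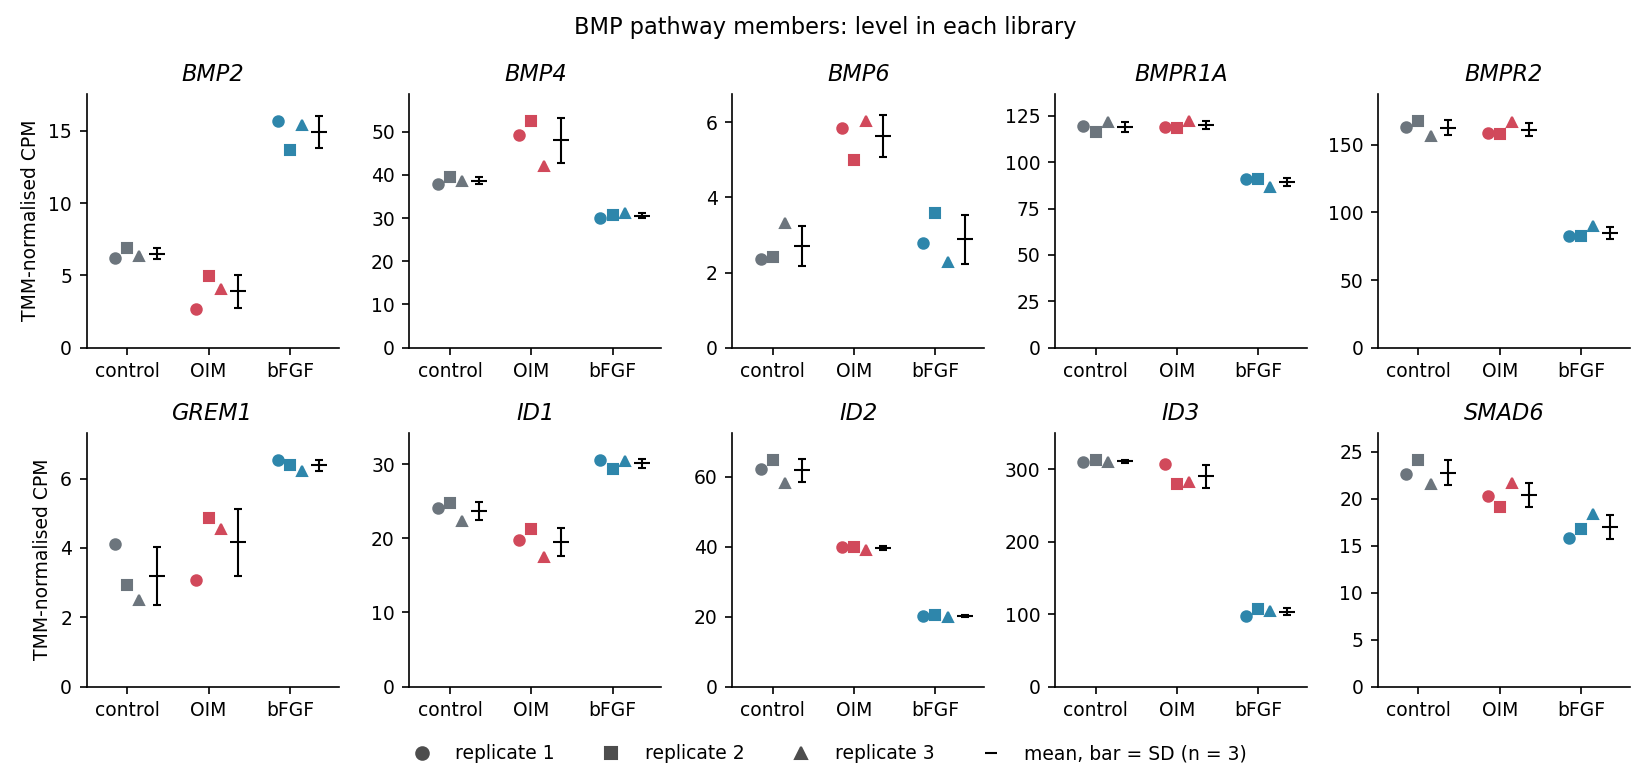
Level of the 10 genes in each library. The y axes give TMM-normalised CPM from 0, symbols mark the replicates of control, OIM and bFGF, and the bars give the mean and SD of 3 libraries; the bFGF libraries lie outside the OIM range in every panel.

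Among the ligands, BMP2, an inducer of bone formation, fell in OIM and was highest in bFGF. The gene lies on chromosome 17 from 15750487 to 15762982, on the plus strand. Its level was 6.20, 6.91 and 6.36 CPM in control, 2.69, 4.96 and 4.08 in OIM and 15.7, 13.6 and 15.4 in bFGF. The groups did not overlap, in the order OIM, control, bFGF. In OIM it was 0.606 times the control level (log2 fold change -0.72, SE 0.153, edgeR adjusted p = 0.00288), and in bFGF it was 3.79 times the OIM level (1.92, SE 0.149, edgeR adjusted p = 5.56e-10) and 2.29 times the control level (1.20, SE 0.143, edgeR adjusted p = 2.95e-07). Without OIM replicate 2 the log2 fold changes were -0.93 for OIM against control and 2.15 for bFGF against OIM. In bulk RNA, fewer cells that express a gene and less of its RNA per cell cannot be told apart, here and for the genes that follow.

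BMP4, a ligand close to BMP2 in sequence, moved the other way. It lies on chromosome 1 from 183415989 to 183422888, on the minus strand. The libraries held 37.8, 39.4 and 38.7 CPM in control, 49.2, 52.5 and 42.2 in OIM and 29.9, 30.6 and 31.2 in bFGF. The order was bFGF, control, OIM, with no overlap. The value in OIM was 1.24 times that in control and passed the adjusted p but not the fold limit (0.31, SE 0.0652, edgeR adjusted p = 0.00262). BMP4 fell in bFGF to 0.637 times the OIM level (-0.65, SE 0.0663, edgeR adjusted p = 3.44e-08), and the change from control was under the fold limit (-0.34, SE 0.0667, edgeR adjusted p = 0.000154). Without OIM replicate 2 the change from OIM to bFGF was -0.56.

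BMP6, a ligand that also controls iron balance through hepcidin in the liver, was highest in OIM. It lies on chromosome 7 from 5058817 to 5208868, on the plus strand. Control libraries held 2.37, 2.43 and 3.31 CPM, OIM libraries 5.85, 4.99 and 6.04, and bFGF libraries 2.80, 3.58 and 2.27. OIM lay above both other groups, which overlapped. The OIM level was 2.08 times that in control (1.05, SE 0.179, edgeR adjusted p = 0.000396), and BMP6 fell in bFGF to 0.513 times the OIM level (-0.96, SE 0.179, edgeR adjusted p = 8.38e-05). These changes were 1.14 and -1.03 without OIM replicate 2. Between bFGF and control the log2 difference was 0.091 (SE 0.186, edgeR adjusted p = 0.678).

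Per length of exon (CPM per kilobase of exon, RPKM), BMP4 was the most abundant of the 3 ligands in each group, at 10.1 ± 0.208 in control, 12.6 ± 1.39 in OIM and 8.03 ± 0.175 in bFGF (SD, n = 3). The ratio of BMP2 to BMP4 was 0.145 ± 0.00556 in control, 0.0708 ± 0.0204 in OIM and 0.421 ± 0.0343 in bFGF (SD, n = 3). The 3 bFGF libraries had ratios of 0.385 to 0.454, above the highest of the other libraries, 0.152. BMP6 was at 1.64 ± 0.323, 3.42 ± 0.341 and 1.75 ± 0.400 RPKM (SD, n = 3), so it stood above BMP2 in OIM (0.887 ± 0.259) and below it in bFGF (3.38 ± 0.250). The annotation holds 1 transcript model of BMP6 with 1643 bases of exon, against 4409 for BMP2 and 3809 for BMP4. The RPKM of BMP6 may therefore be overstated, also in the ligand sum set against GREM1 below.

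BMPR2, the type II receptor, fell in bFGF and did not pass the test between OIM and control. It lies on chromosome 15 from 105971577 to 106132496, on the plus strand. Its level was 163, 168 and 157 CPM in control, 159, 158 and 167 in OIM and 82.2, 82.4 and 90.0 in bFGF. Control and OIM overlapped, and the bFGF libraries lay below both. BMPR2 in bFGF was 0.527 times the OIM level (-0.92, SE 0.0437, edgeR adjusted p = 2.42e-13) and 0.522 times the control level (-0.94, SE 0.0437, edgeR adjusted p = 1.61e-13). The difference between OIM and control was -0.013 (SE 0.0427, edgeR adjusted p = 0.892). The log2 fold change from OIM to bFGF was also -0.92 without OIM replicate 2.

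BMPR1A, the type I receptor that pairs with it, had smaller changes. It lies on chromosome 14 from 87743270 to 87891790, on the plus strand. The gene had 119.7, 116 and 122 CPM in control, 119, 119 and 122 in OIM and 90.8, 90.7 and 86.9 in bFGF. The bFGF libraries again lay below both other groups, which overlapped. The changes passed the adjusted p but not the fold limit, at -0.42 against OIM (SE 0.0386, edgeR adjusted p = 6.42e-09) and -0.41 against control (SE 0.0386, edgeR adjusted p = 8.65e-09), and OIM against control was 0.011 (SE 0.0382, edgeR adjusted p = 0.902). MMRN2 overlaps BMPR1A on the other strand. The strand setting of the counting is not given in the sources used here, and MMRN2 had 0.874 to 1.67 CPM. The ratio of BMPR2 to BMPR1A in RPKM was 2.93 ± 0.167 in control, 2.88 ± 0.0364 in OIM and 2.04 ± 0.159 in bFGF (SD, n = 3). The annotation holds 1 short transcript model of BMPR2, so its RPKM may be overstated. Whether this was equal between the groups was not tested.

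GREM1 rose in bFGF. It lies on chromosome 1 from 136617041 to 136629293, on the plus strand, and was the least abundant of the 10 genes per length in control. Control libraries held 4.11, 2.94 and 2.49 CPM, OIM libraries 3.06, 4.87 and 4.55, and bFGF libraries 6.54, 6.38 and 6.23. Control and OIM overlapped, and bFGF lay above both. GREM1 in bFGF was 1.53 times the OIM level (0.61, SE 0.178, edgeR adjusted p = 0.0049) and 2.01 times the control level (1.01, SE 0.182, edgeR adjusted p = 5.81e-05). For OIM against control the log2 fold change was 0.40 (SE 0.185, edgeR adjusted p = 0.18). Without OIM replicate 2 the changes were 0.76 for bFGF against OIM and 0.27 for OIM against control. Other single libraries decided 2 of these calls: without OIM replicate 1 the change from OIM to bFGF was 0.44 and not called, and without OIM replicate 1 or control replicate 1 GREM1 was called higher in OIM than in control (0.57 and 0.62). Relative to the summed RPKM of BMP2, BMP4 and BMP6, GREM1 was at 0.0613 ± 0.0182 in control, 0.0627 ± 0.0151 in OIM and 0.123 ± 0.00306 in bFGF (SD, n = 3).

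The 3 ID genes, each with the pattern printed above, differed in direction. ID3, on chromosome 6 from 81422541 to 81424169 on the minus strand, had the largest fall of the 10 genes in bFGF against OIM. Its level was 310, 313 and 311 CPM in control, 308, 280 and 283 in OIM and 98.0, 108 and 104 in bFGF. The bFGF libraries lay far below the others. ID3 fell to 0.355 times the OIM level (-1.49, SE 0.043, edgeR adjusted p = 1.36e-16) and 0.331 times the control level (-1.59, SE 0.0431, edgeR adjusted p = 4.7e-17), whereas OIM against control gave -0.10 (SE 0.0414, edgeR adjusted p = 0.123). Leaving out OIM replicate 2 gave -1.50 for bFGF against OIM.

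ID2, on chromosome 3 from 127500759 to 127503207 on the minus strand, fell at both steps. Control libraries held 62.2, 64.9 and 58.4 CPM, OIM libraries 39.9, 39.9 and 39.1, and bFGF libraries 20.2, 20.6 and 19.9. No groups overlapped, in the order bFGF, OIM, control. The OIM level was 0.641 times that in control (-0.64, SE 0.0517, edgeR adjusted p = 5.95e-08), and the bFGF level was 0.511 times that in OIM (-0.97, SE 0.0546, edgeR adjusted p = 3.62e-12) and 0.327 times that in control (-1.61, SE 0.0543, edgeR adjusted p = 1.14e-15). Without OIM replicate 2 the fall in OIM was -0.65 and that from OIM to bFGF was -0.95.

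ID1, on chromosome 17 from 35316518 to 35317742 on the plus strand, rose in bFGF. Its level was 24.0, 24.7 and 22.4 CPM in control, 19.8, 21.3 and 17.5 in OIM and 30.6, 29.4 and 30.4 in bFGF. The order was OIM, control, bFGF without overlap, the same order as for BMP2. ID1 in bFGF was 1.54 times the OIM level (0.62, SE 0.0727, edgeR adjusted p = 2.32e-07). Under the fold limit were OIM against control (-0.28, SE 0.073, edgeR adjusted p = 0.0134) and bFGF against control (0.34, SE 0.072, edgeR adjusted p = 0.000272). Without OIM replicate 2 the rise from OIM to bFGF was 0.71.

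SMAD6, an inhibitory SMAD, was not called in any of the 3 comparisons. It lies on chromosome 1 from 164652602 to 164735084, on the plus strand. Its level was 22.7, 24.2 and 21.6 CPM in control, 20.3, 19.1 and 21.7 in OIM and 15.9, 16.7 and 18.4 in bFGF. Control and OIM overlapped, and bFGF lay below both. Both bFGF differences passed the adjusted p but not the fold limit, at -0.26 against OIM (SE 0.0773, edgeR adjusted p = 0.00564) and -0.42 against control (SE 0.077, edgeR adjusted p = 6.37e-05), and OIM against control was -0.16 (SE 0.0759, edgeR adjusted p = 0.181).

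**Figure D3:**
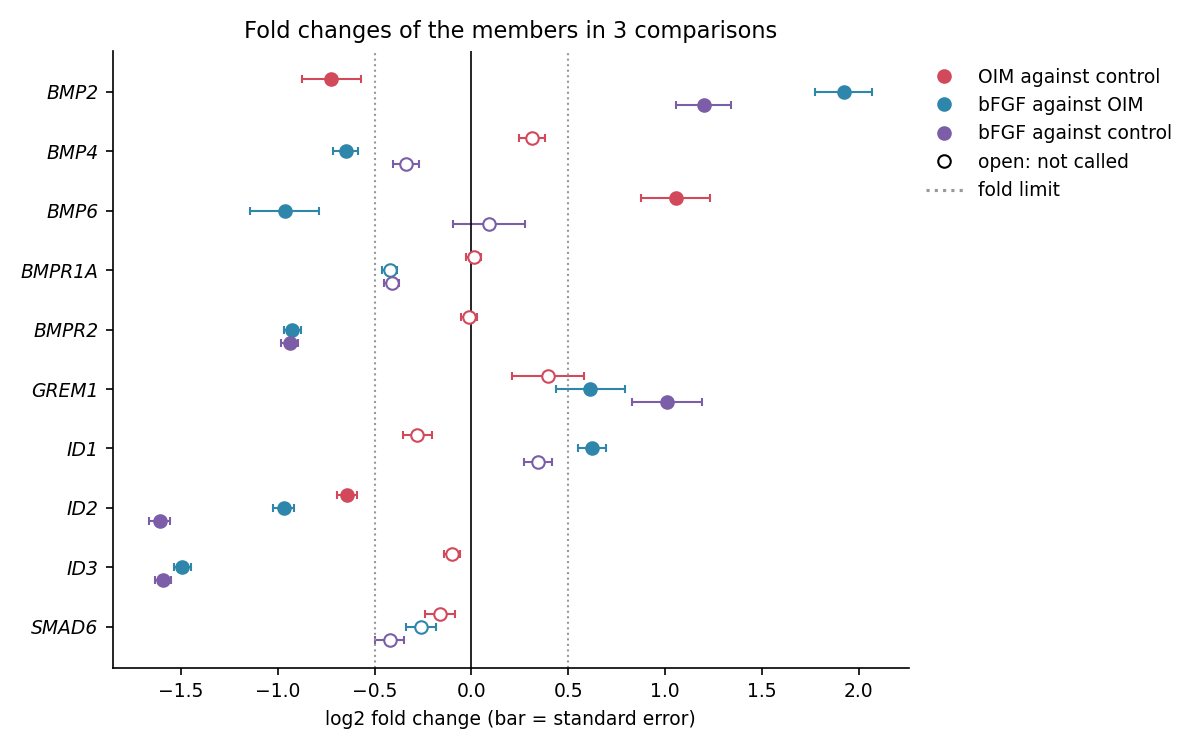
Log2 fold changes of the 10 genes in the 3 comparisons. The x axis gives the log2 fold change; points give the edgeR estimate, bars its standard error, open points are not called, and dotted lines mark the fold limit of 0.5 in both directions. In bFGF against OIM, BMP2 (1.92) and ID3 (-1.49) lie at the ends.

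The ID family also changed in its make-up. The summed RPKM of ID1, ID2, ID3 and ID4 was 404 ± 5.14 in control, 364 ± 16.03 in OIM and 164 ± 4.26 in bFGF (SD, n = 3). ID3 made up 80.5% ± 0.696 of the sum in control and 83.5% ± 0.874 in OIM, but 65.7% ± 1.42 in bFGF (SD, n = 3). ID1 made up 5.88% ± 0.226, 5.38% ± 0.555 and 18.4% ± 0.850, with the 3 bFGF libraries at 17.5% to 19.2%. The share of ID2 was 11.9% ± 0.483 in control, 8.51% ± 0.330 in OIM and 9.63% ± 0.209 in bFGF, and that of ID4 was 1.66% ± 0.117, 2.64% ± 0.241 and 6.23% ± 0.576 (SD, n = 3). ID1 per ID3 was 0.0730 ± 0.00342, 0.0646 ± 0.00725 and 0.280 ± 0.0186, while ID2 per ID3 was 0.148 ± 0.00722 in control and 0.147 ± 0.00631 in bFGF, with 0.102 ± 0.00495 in OIM (SD, n = 3).

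**Figure D4:**
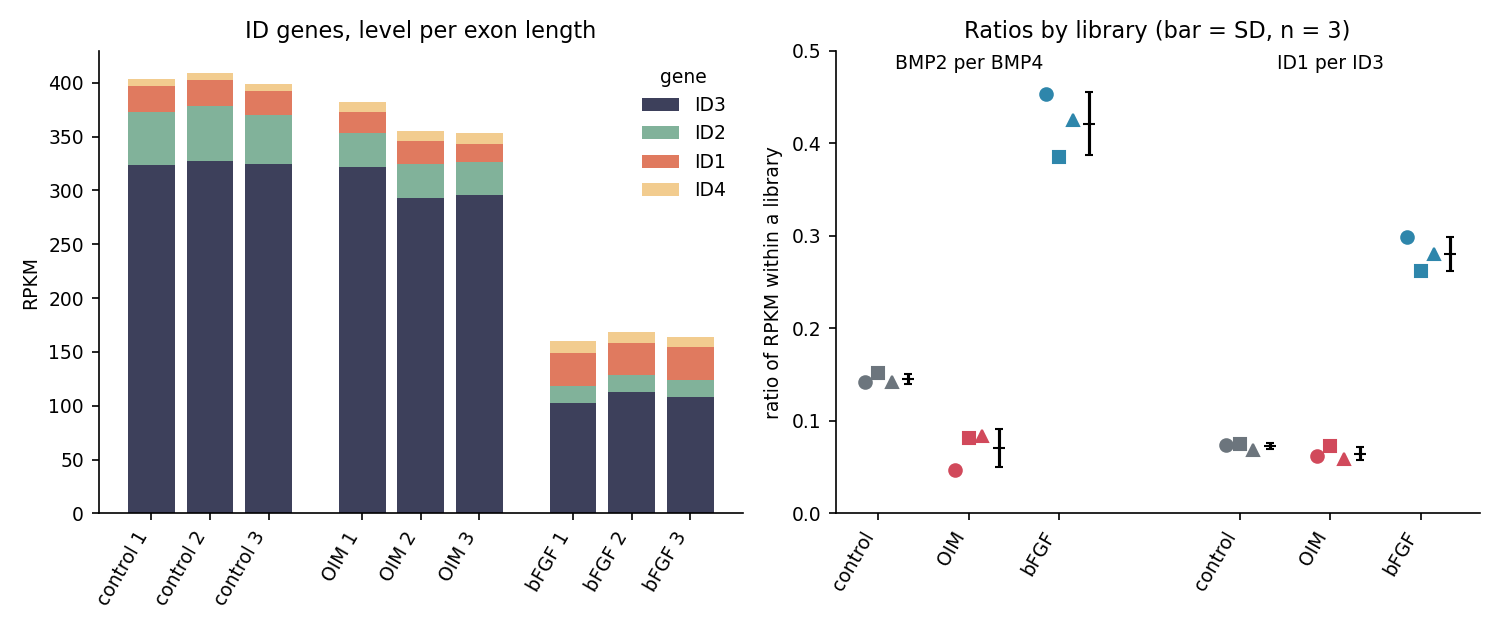
ID gene family and within-library ratios. Stacked bars on the left give ID1, ID2, ID3 and ID4 in RPKM, and points on the right give BMP2 per BMP4 and ID1 per ID3 as ratios of RPKM with mean and SD of 3 libraries. The stack is 160 to 168 high in bFGF and 354 to 409 in the other libraries, and both ratios are highest in the bFGF libraries.

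The wider pathway was described through 58 further genes by role, of which 57 were in the table and 47 were tested. In OIM against control 3 were called higher and 0 lower, where the shares over all genes were 1.49% and 0.864%. No gene was lower at an unadjusted p under 0.05 with the same fold limit either, and DESeq2 also called 3 higher and 0 lower. In bFGF against OIM 5 were called higher and 16 lower, against the shares of 17.7% and 18.4% given above, and in bFGF against control 6 higher and 16 lower, against 18.9% and 20.0%. Scaling by library totals gave 6 higher and 12 lower against OIM, where 27.3% and 12.4% of all genes were then called, and 9 higher and 11 lower against control, with 28.8% and 13.5% of all genes. By contrast, median-of-ratios size factors left the counts at 5 and 16 and at 6 and 16. DESeq2, which also differs in test and filter, gave 4 and 17 and 9 and 17, the same counts as edgeR without a filter on low counts. The median log2 fold change of the list was 0.023, -0.22 and -0.28 in the 3 comparisons, against -0.0019, -0.0029 and -0.016 over all genes tested.

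Of the 11 other ligands, 6 were tested. BMP3, which opposes osteogenic BMPs, had 10.8, 11.4 and 10.6 CPM in control, 23.6, 14.1 and 21.7 in OIM and 1.73, 1.40 and 1.29 in bFGF. It rose in OIM (0.85, SE 0.138, edgeR adjusted p = 0.000252) and fell in bFGF against OIM (-3.74, SE 0.173, edgeR adjusted p = 1.74e-13), with OIM replicate 2 the lowest of its group. GDF6, a ligand of joint and skeletal patterning, rose in OIM (0.54, edgeR adjusted p = 4.78e-06) and fell in bFGF against OIM (-0.98, edgeR adjusted p = 3.22e-11). BMP7 (-1.17) and GDF7 (-1.11) also fell in bFGF against OIM at low levels of 0.308 to 1.02 and 0.539 to 2.29 CPM in these groups. Neither call held without 1 library, BMP7 without OIM replicate 3 (-0.87) and GDF7 without OIM replicate 1 (-0.80). The GDF6 call in OIM was lost without control replicate 3 (0.497). BMP5 rose in bFGF against OIM (3.72, SE 0.648, edgeR adjusted p = 4.06e-05), with 94, 80 and 89 counts in bFGF, 7, 9 and 6 in OIM and 1, 2 and 28 in control, where replicate 3 was far above the others.

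Of the receptors and co-receptors, 9 were tested and all 9 passed the adjusted p in bFGF against OIM, as did 67.4% of all genes. BMPR1B, another type I receptor, rose in bFGF from 17.8, 19.4 and 20.2 CPM in OIM to 34.8, 30.6 and 34.1 (0.79, SE 0.0762, edgeR adjusted p = 1.41e-08), while BMPR1A and BMPR2 had lower values there. The co-receptor RGMB rose (1.23, edgeR adjusted p = 7.52e-12) and its relative RGMA fell (-1.18, edgeR adjusted p = 7.94e-10). ACVRL1, a type I receptor best known in endothelium (-0.69, edgeR adjusted p = 2.81e-09), and the pseudoreceptor BAMBI (-0.67, edgeR adjusted p = 3.64e-07) fell. ACVR2B was called lower in bFGF against control (-0.54, edgeR adjusted p = 0.00118), a call lost without control replicate 3 (-0.44).

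Of the 10 antagonists tested besides GREM1, 5 fell and 1 rose in bFGF against OIM, against 18.4% and 17.7% of all genes. The fallers were CHRD (chordin, -1.11), FSTL1 (-1.36), FSTL3 (-0.71), CRIM1 (-1.32) and NBL1 (-0.83), with edgeR adjusted p between 4.26e-17 for FSTL1 and 2.29e-09 for FSTL3. FSTL1, the most abundant of them, had 2134, 2189 and 2137 CPM in control and 833, 857 and 813 in bFGF. NOG, the gene of the antagonist noggin, rose from 4, 10 and 3 counts in OIM to 25, 13 and 14 in bFGF (1.77, SE 0.717, edgeR adjusted p = 0.0357), with 1, 0 and 6 in control. This call was lost without OIM replicate 1 or 3 or any bFGF replicate (1.43 to 1.93), and under DESeq2 (adjusted p = 0.0654). CHRDL1 was called lower in bFGF against control (-0.59, edgeR adjusted p = 5.49e-10).

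Of the 11 signal carriers and regulators, the inhibitory SMAD7 (-0.57, edgeR adjusted p = 1e-09) and the receptor-regulated SMAD9 (-0.76, edgeR adjusted p = 4.97e-08) fell in bFGF against OIM, and the phosphatase gene CTDSP2 was lower in bFGF against control (-0.54, edgeR adjusted p = 2.09e-09; -0.498 and not called without control replicate 2). Among other targets, ID4 had 17.4, 15.4 and 15.8 CPM in control, 22.1, 23.0 and 24.5 in OIM and 26.5, 25.0 and 22.6 in bFGF, and it rose in OIM against control (0.52, edgeR adjusted p = 9.56e-05), a call lost without OIM replicate 3 (0.476) or control replicate 2 (0.480). HEY1, a repressor also induced by Notch, fell in bFGF against OIM (-1.07, edgeR adjusted p = 0.00128). DLX5, an osteoblast transcription factor, had 20, 18 and 10 counts in control, 21, 3 and 8 in OIM and 0 in each bFGF library. Against a floor of 3 counts per library it was at least 3.35-fold lower in bFGF than in OIM and at least 4.85-fold lower than in control. The first limit rested on OIM replicate 1 and was 1.63-fold without it. Of the bHLH partners of the ID proteins, TWIST2 rose in bFGF against OIM (0.90, edgeR adjusted p = 4.96e-05) and the other 4 were not called.

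**Figure D5:**
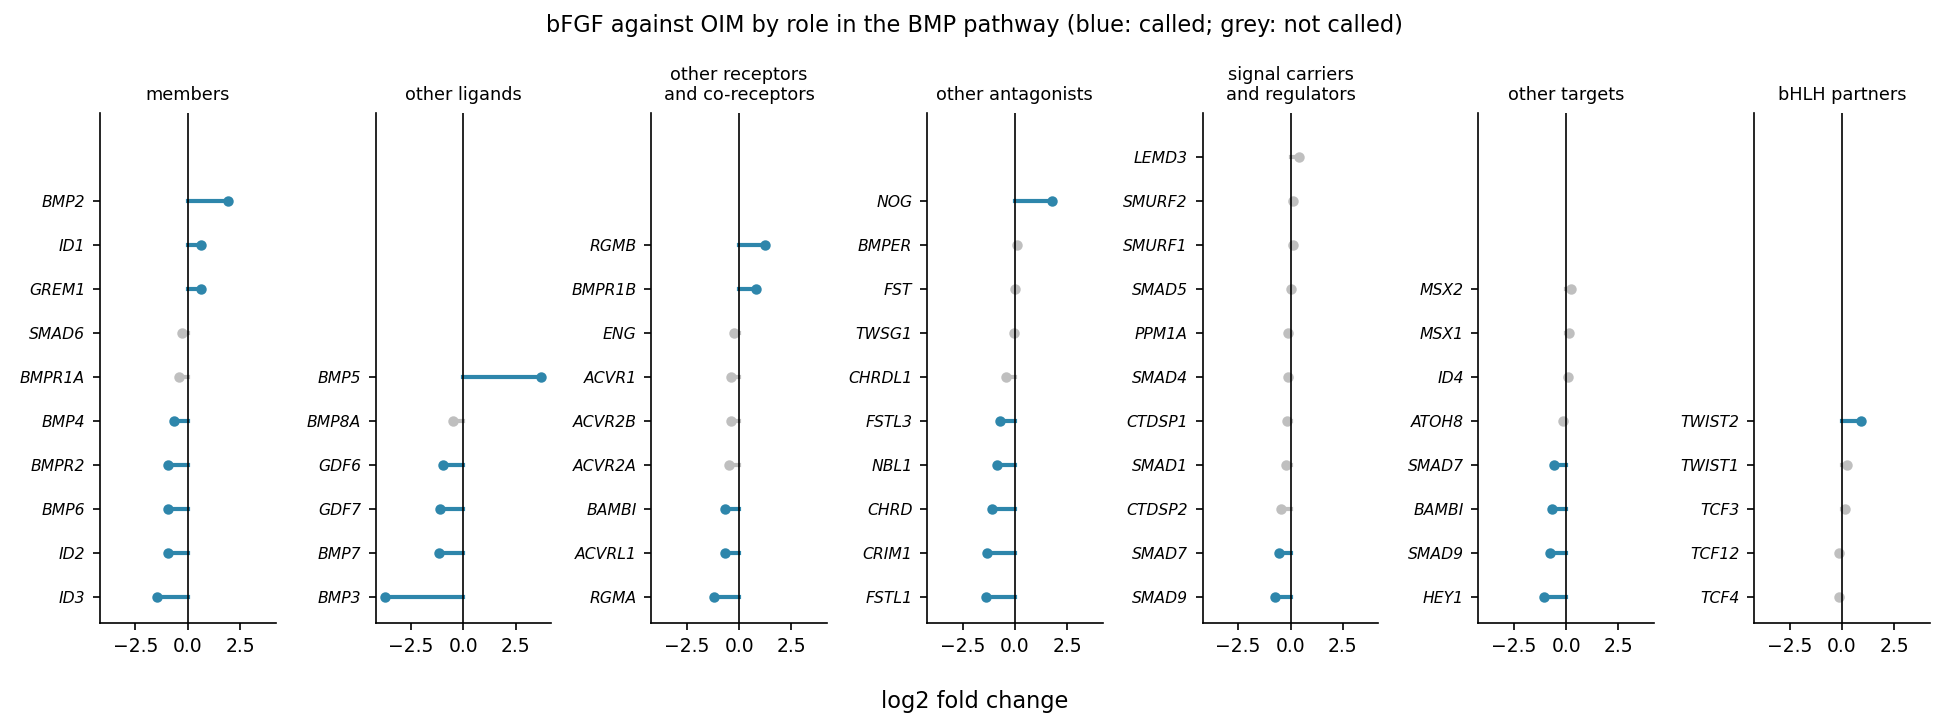
Log2 fold changes in bFGF against OIM by role. Each point is a gene (blue where called, grey where not), the x axes give log2 fold change, and BAMBI, SMAD7 and SMAD9 appear in 2 panels; DLX5, at 0 in bFGF, is left out. Besides the 10 genes, BMP3 (-3.74) and BMP5 (3.72) lie farthest from 0.

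The genes whose profile over the 9 libraries was nearest to a member were taken for the member of each role that moved most in bFGF against OIM. Likeness was the root mean square difference of centred log2 CPM, given without a test, and all profiles share the libraries. Nearest to BMP2 were OLR1 (0.180), LOC110261664 (0.209) and SEMA4D (0.215), and nearest to BMPR2 were PRRX2 (0.0423), ZNHIT6 (0.0511) and NECTIN2 (0.0515). FAM174B (0.184), FSBP (0.194) and GGCT (0.197) were nearest to GREM1. HSD3B7 (0.0622), FBN1 (0.0622), which encodes the microfibril protein fibrillin 1, and C1QTNF1 (0.0664) were nearest to ID3.

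Circular RNAs, formed by back-splicing of exons, were listed from 3 of the 10 genes, only where a library had at least 2 junction reads. BMPR2 gave 5 circles, with 4, 12 and 8 reads in control, 6, 2 and 3 in OIM and none listed in bFGF. BMPR1A circles had 0 reads in control, 2 in OIM and 3 in bFGF over the libraries of a group, and the SMAD6 circle had 2, 5 and 0. One of the BMPR2 circles, made of exon 12 of 13, had 4, 7 and 8 reads in control, 0, 0 and 3 in OIM and 0 in each bFGF library. A listed 0 may stand for 1 read, all circular RNAs together had 6048 to 6394 reads in bFGF libraries and 8051 to 10029 in the others, and no test was run at this depth. Near ID2 and ID3 the table listed the non-coding transcripts LOC106509912, on the strand opposite to ID2 with estimated counts of 2.96 to 24.9, and LOC110261114, on the strand of ID3 with 2.21 to 20.0.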

How the data were processed

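Total RNA of 9 PVIC libraries was sequenced as paired reads. The authors deposited 1 table of unnormalised expected counts: whole numbers for 19535 genes and 6179 circular RNAs, and estimated counts for 9888 non-coding transcripts. A further 19 unnamed, empty columns were not used. The submitters' processing notes name Trimmomatic, HISAT2, StringTie and Sscrofa11.1, while the paper names Cutadapt and STAR; the labels name ribosomal RNA removal and the paper a poly-A kit. The counting program and its strand setting are not given in the sources used here.

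Groups and replicate numbers came from the labels. Genes kept by filterByExpr (13662) were TMM-normalised and tested with edgeR 4.0.16 in R 4.3.3 by the quasi-likelihood test, in 1 fit of 3 groups with 6 residual degrees of freedom, and p-values were Benjamini-Hochberg adjusted over all genes tested. The SE was the log2 fold change divided by the square root of F. The common biological coefficient of variation was 0.0602 at 46773376 to 67371523 counts per library. RPKM used the union of RefSeq exons. The fit was tested on simulated data in which 200 of 13662 genes changed in the bFGF libraries. Of these, 139 were called at 1.5-fold, 168 at 2-fold and 190 at 4-fold, with 1, 2 and 4 false calls. In the data 36.2% of genes were called in bFGF against OIM, so the simulation could not test the scaling under so wide a change. All 10 genes were named in each comparison, further pathway genes where called in at least 1 comparison, and 3 nearest profiles for 1 gene per role. The genes and lists were chosen with earlier results of these data known. Alternatives were DESeq2 1.42.0, other scalings and filters, no fold limit, fits of 2 groups, a replicate block and leaving out each library.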

Additional observations from a re-analysis of the deposited data

How the results depend on the processing

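Over DESeq2, both other scalings, both other filters, fits of only the 2 groups compared and the replicate block, the directions of the 10 genes held in all comparisons. Without the fold limit, 2 of the 10 genes were higher and 3 lower in OIM than in control, where 13.6% of all genes passed, 3 higher and 7 lower with bFGF against OIM (67.4% of all genes), and 3 higher and 6 lower in bFGF than in control (70.2%). Under the same rule the counts among the 47 other pathway genes tested were 6 higher and 2 lower, 9 higher and 28 lower, and 10 higher and 23 lower, beside the same shares of all genes. When each library was left out in turn, the number of the 10 genes called higher in OIM against control was 1 to 2, and the number of other pathway genes called lower there was 0 to 1, CHRD being called without OIM replicate 1 (-0.52). Other pathway genes called higher there numbered 2 to 3. In bFGF against OIM, 2 to 3 of the 10 genes were then called higher. Of the other pathway genes, 4 to 5 were called higher and 15 to 17 lower in that comparison. With single libraries left out, the sign changed only for differences near 0: BMPR1A in OIM against control (range -0.0075 to 0.026; negative without control replicate 2, and -0.0041 without OIM replicate 3), BMPR2 in the same comparison (-0.038 to 0.011; positive without control replicate 2, and 0.0025 without OIM replicate 2) and BMP6 in bFGF against control (-0.094, without bFGF replicate 2, to 0.26). With library totals alone, ACVRL1 (-0.47), BAMBI (-0.44), FSTL3 (-0.49) and SMAD7 (-0.35) lost their calls in bFGF against OIM, and ACVR2B (-0.31), CHRDL1 (-0.36), CTDSP2 (-0.32), FSTL3 (-0.34) and SMAD7 (-0.41) lost theirs in bFGF against control, while LEMD3 (0.63 and 0.60) gained a call as higher in both and SMURF1 (0.69) and TWIST1 (0.66) in bFGF against control. The replicate numbers share no batch in the labels and the deviations of same-numbered libraries from their group means correlated at -0.032 to 0.0035, so they were not taken as pairs; with the replicate block the 10 genes gave 1 higher and 2 lower, 3 and 5, and 2 and 3 calls in the 3 comparisons, as without it, NOG lost its call in bFGF against OIM (adjusted p = 0.0616), ATOH8 gained one as lower in bFGF against control (-0.96, adjusted p = 0.0442), as it did under DESeq2, with no filter on low counts, with only the 2 groups compared and without bFGF replicate 3 (-0.87 to -1.22), and over all genes there were 309, 4917 and 5285 calls in place of 321, 4939 and 5323. With 3 libraries per group, changes of genes with few counts, such as NOG and DLX5, were measured with large errors.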
